A study of Mus musculus with 12 samples.

Results

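Balb/c macrophages that had spent 18 h in interleukin-4 (IL-4) were compared, gene by gene, with macrophages of the same strain that had not received it. The samples titled as 18 h of IL-4 (replicates 1 and 2) were set against those titled as mock (replicates 1 and 2). Described here are 15723 genes, of 18427 tested over the whole study, whose tested probe was well above background, as judged by the scanner software, on both arrays of at least 1 of these groups. The macrophages were grown from bone marrow of Balb/cAnNCrl mice aged 8 to 12 weeks, each sample being a pool of 2 males and 1 female, and all cells, mock cells included, were cultured with human rCSF1 at 200 ng/ml. The medium was renewed on day 5, the cells were reseeded on day 6, and from day 7 they received IL-4 at 10 ng/ml for 18 h or were kept for the same 18 h without it. The other Balb/c group received the same IL-4 for 4 h, and C57BL6/J cells gave matching mock, 4 h and 18 h groups. Every group came from 2 independent experiments that used different littermates. The treatment text also names LPS, but no label of these samples does.

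IL-4 is a cytokine of type 2 immunity that binds a receptor containing the IL-4Rα chain, which signals through JAK kinases to the transcription factor STAT6. In macrophages this leads to the state called alternative activation, known for arginase 1, the secreted protein RELMα (Retnla), chitinase-like proteins and lectin receptors that take up glycoproteins. IL-4 is also known to oppose inflammatory and interferon-driven transcription in the same cells, and SOCS proteins are its feedback inhibitors.

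The 12 one-colour arrays of the study had 43379 spots each, and the share well above background was 54.9% to 69.7%, or 54.9% to 60.2% on the 4 arrays compared here. Replicates correlated at 0.974 to 0.989 over genes, at 0.982 for Balb/c mock and 0.985 for Balb/c 18 h. Both mock arrays and 18 h replicate 1 shared a slide, while 18 h replicate 2 lay on another. All 12 macrophage markers tested, among them Adgre1, Csf1r, Itgam, Cd68 and Lyz2, were well above background on the 4 arrays. Their summed level was 10.1 to 10.2 in mock and 9.61 to 9.88 at 18 h. Of the 12, 2, Fcgr1 and Cd14, were called lower at 18 h and 0 higher, against 2.36% and 1.37% of all genes. Changes were negative for 10 of them and for 8782 of 18427 genes tested. A level is the log2 processed signal of a gene's probe minus the 75th percentile of its array, so 0 marks a signal at that percentile, and the summed level of a list is the log2 of its genes' added signals on the same scale. The files hold pools of cells, in which fewer cells of a type and less RNA per cell cannot be told apart. The p-values measure only the spread between these samples, and the number of arrays limits precision.

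By 18 h, genes of alternative activation were among the largest rises. Interferon-inducible genes, Cxcl10 with them, were among the largest falls of genes above background on all 4 arrays. The larger falls of chemoattractant receptors were of genes not above background on both 18 h arrays. In the limma fit of all 12 arrays with Benjamini-Hochberg adjustment over 18427 genes, 687 genes (3.73%) were called at an adjusted p below 0.05, with 252 (1.37%) higher and 435 (2.36%) lower at 18 h. Of these, 223 (1.21%) were at least 2-fold higher and 373 (2.02%) at least 2-fold lower. Among genes above background on all 4 arrays, 12 were at least 16-fold higher and 5 at least 16-fold lower, although more genes fell than rose. The median log2 change of all genes tested was 0.02. An unadjusted p below 0.05 was reached by 2788 genes. No called gene had overlapping replicate values, a separation that 42.4% of all genes tested also showed.

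Of the 15723 genes detected in mock or 18 h cells, 657 were called, 234 higher and 423 lower. Most, 14417, were well above background on all 4 arrays, and 541 of them were called, 179 higher and 362 lower. A smaller group of 65 genes was not well above background on either mock array, and 47 of them were called higher. Another 465 genes were not well above background on either 18 h array, and 50 of them were called lower. Both of these groups are detected on 1 side only, so their counts are not read as a result. For such genes the sizes are lower bounds, written as at least so many fold and measured from the dimmest level the software still called well above background, or from the gene's own level where that was higher.

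**Figure D1:**
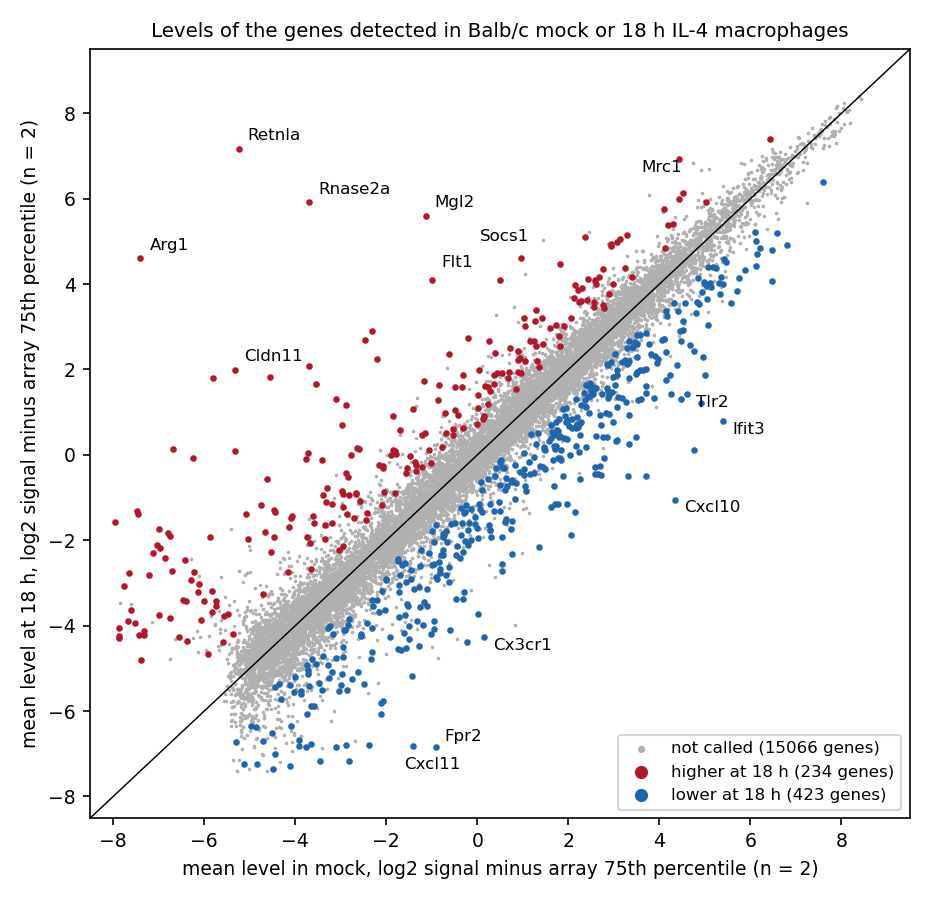
Mean level at 18 h of IL-4 against mean level in mock for the 15723 genes detected in Balb/c mock or 18 h macrophages, on a log2 scale relative to each array's 75th percentile (n = 2 arrays per axis); red points are the 234 genes called higher, blue points the 423 called lower, grey points the rest, and the line marks equal levels. Arg1 and Retnla lie far above the line at the low end of mock levels, and Cxcl10, Ifit3 and Tlr2 lie below it among genes with high mock levels.

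Called genes had a median absolute log2 change of 1.66 over all 4 arrays, and of 1.67 over the 3 arrays of the shared slide, which are among the arrays that chose these genes. The count of calls depended on single arrays: it was 353 without mock replicate 1, 446 without mock replicate 2, 323 without 18 h replicate 1 and 314 without 18 h replicate 2. With only the 4 arrays compared in the fit it was 17. Of 121 called genes named in this text, 66 stayed called whichever of the 4 arrays was left out, and where a named gene did not, this is said in its paragraph. Under normexp background correction 12 named genes lost their call: Chil4, Cxcl9, Tgfa and Klrk1, which had kept it without any single array, and Ppm1n, Samd4, Gfi1b, Socs2, Myd88, Cd276, Cd163 and Camp.

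Most effectors of alternative activation rose, in a list that, like the others here, was chosen with earlier results of these data known. Its counts are a description. Of 20 tested genes of this list, 14 were called higher and 0 lower, against 1.37% and 2.36% of all genes, and their median log2 change was 4.38 against 0.02 for all genes. The 15 of them that were above background on all 4 arrays had a median of 2.69, and with dim genes set to their bound the median of all 20 was 3.77. Arg1 encodes arginase 1, which splits arginine into ornithine and urea. Its level was -7.06 and -7.74 on the mock arrays, neither well above background, and 4.51 and 4.69 at 18 h. Both 18 h arrays stood far above both mock arrays, a rise of Arg1 of at least 1185-fold (adjusted p = 7.7e-05).

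Retnla, the gene of the secreted protein RELMα, had a level of -3.01 and -7.48 in mock, only replicate 1 being above background, and of 7.42 and 6.91 at 18 h. The mock arrays differed widely from each other and both lay below the 18 h arrays, and the fitted log2 rise was 12.41 ± 1.21 (SE, adjusted p = 0.0020), or at least 2893-fold with the dim mock array set to its bound. Rnase2a, a secreted ribonuclease of the eosinophil-associated family, had levels of -3.20 and -4.19 in mock and 5.84 and 6.00 at 18 h. Well above background on all 4 arrays, it rose by 9.62 ± 0.43 log2, or 785-fold (adjusted p = 1.3e-04). Its relatives Ear1 and Ear6 rose at least 13.7-fold and 9.20-fold from near background (adjusted p = 0.0032 and 0.0010). Members of this ribonuclease family are near-identical in sequence, so one probe may carry signal of several, and these rises are not independent of each other.

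The chitinase-like genes Chil3 and Chil4, whose products are secreted proteins without chitinase activity, rose as well. Chil3 had levels of -3.31 and -3.79 in mock and 2.41 and 0.89 at 18 h, a rise of 5.20 ± 0.59 log2 (36.8-fold, adjusted p = 0.0033). Chil4, dim on both mock arrays, was at least 14.7-fold higher at 18 h (adjusted p = 0.0045), a call that ended under normexp background correction (2.12 ± 0.57 log2, adjusted p = 0.11), and as a close copy of Chil3 it may share its signal. Among membrane proteins, Cdh1, the cell adhesion molecule E-cadherin, rose at least 53.5-fold from near background (adjusted p = 0.0010). Flt1, a receptor for vascular endothelial growth factor, went from -1.19 and -0.80 to 4.00 and 4.19, a rise of 5.09 ± 0.26 log2 (adjusted p = 1.6e-04). Of the 4 Flt1 probes kept, the tested one is the brightest, and the changes of the 4 ran from 0.88 to 5.17.

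Lectin receptors of the list were higher to very different degrees. Mgl2, a galactose-binding lectin, rose by 6.74 ± 0.87 log2 from -2.20 and -0.07 to 5.22 and 5.98 (adjusted p = 0.0052). Its close relative Clec10a, already at 4.54 and 4.33 in mock, rose by 2.49 ± 0.26 to 6.71 and 7.15 (adjusted p = 0.0024). Mrc1, the mannose receptor, started from 4.28 and 4.75 and rose by 1.61 ± 0.18 (adjusted p = 0.0034), or 3.05-fold. At 18 h all 3 lectins stood well above the 75th percentile of both arrays, whereas in mock cells Mgl2 lay below it and the others above. Fn1, the matrix protein fibronectin, rose by 3.67 ± 0.39 (adjusted p = 0.0027).

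Tmem26 and Pdcd1lg2, also of this list, are shown with Retnla because the stretch before their start holds a motif known for STAT6. Tmem26, a membrane protein, had levels of -3.54 and -3.86 in mock and 2.33 and 1.83 at 18 h and rose by 5.78 ± 0.29 log2 (adjusted p = 1.6e-04). Pdcd1lg2, whose product PD-L2 binds the inhibitory T cell receptor PD-1, had levels of -4.58 and -7.92 in mock, replicate 1 alone above background, and 0.44 and -0.57 at 18 h. Its fitted rise was 6.19 ± 1.00 log2 (adjusted p = 0.014), or at least 33.1-fold with the dim mock array set to its bound, a call that ended without 18 h replicate 1 or without 18 h replicate 2 (adjusted p up to 0.0958). The sequences are the 250 bases before the gene's start in RefSeq's annotation of mouse build GRCm38.p6, read 5′ to 3′ on the gene's strand, with matches to TTC, any 4 bases and GAA, a spaced palindrome known to bind STAT6, in capitals.
Retnla, chr16:48842359-48842608, plus strand: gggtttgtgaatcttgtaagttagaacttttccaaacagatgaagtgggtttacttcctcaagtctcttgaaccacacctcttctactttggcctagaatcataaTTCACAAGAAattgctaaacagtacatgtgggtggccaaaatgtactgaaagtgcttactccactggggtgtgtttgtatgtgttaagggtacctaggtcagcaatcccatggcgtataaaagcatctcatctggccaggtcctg
Tmem26, chr10:68723496-68723745, plus strand: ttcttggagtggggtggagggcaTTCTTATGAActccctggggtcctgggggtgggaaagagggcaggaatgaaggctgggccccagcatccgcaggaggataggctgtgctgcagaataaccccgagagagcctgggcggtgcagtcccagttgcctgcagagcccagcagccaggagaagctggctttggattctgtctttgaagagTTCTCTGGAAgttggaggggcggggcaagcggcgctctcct
Pdcd1lg2, chr19:29410669-29410918, plus strand: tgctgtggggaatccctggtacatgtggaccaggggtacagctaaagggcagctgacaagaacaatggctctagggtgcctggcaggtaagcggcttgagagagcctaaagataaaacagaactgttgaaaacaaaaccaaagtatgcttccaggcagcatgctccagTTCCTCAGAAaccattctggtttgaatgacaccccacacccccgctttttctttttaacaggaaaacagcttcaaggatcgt
The match of Retnla lies 145 to 136 bases before its start and that of Pdcd1lg2 82 to 73 bases before. Tmem26 holds 2 matches, at 227 to 218 and 41 to 32 bases before the start. Both strands were searched over 300 bases, 250 before and 50 after each start. The motif was in 6.95% of all 32851 RefSeq promoters of that length, in 5.65% of the 14742 promoters of genes tested, in 10.4% (21 of 202) of the promoters of genes at least 2-fold higher, in 6.47% of those of genes at least 2-fold lower, and in 37.5% (6 of 16) of those of the alternative activation list. The 6 promoters of that list belong to 5 genes. The motif was also in 18.5% (5 of 27) of the promoters of the interferon response list described below, whose genes fell. The version with a spacer of any 3 bases was in 8.30% of all promoters, 7.10% of those of genes tested, 8.42% of those of the higher genes and 8.09% of those of the lower. It was in 18.8% (3 of 16) of those of the alternative activation list and 22.2% (6 of 27) of those of the interferon list. The alternative activation list was chosen with earlier results of these data known. The promoter table held 160 of the 223 higher genes and 251 of the 373 lower ones, and a match is a description of letters only.

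The 6 other genes of the list had no call, among them Tgm2, Ccl17 and Clec7a with differences of -0.17, 1.08 and 1.36 log2. Ccl24, the eosinophil attractant eotaxin-2, differed by 2.69 ± 1.02 log2 (adjusted p = 0.26), with mock levels of 0.68 and -1.99 and 18 h levels of 2.43 and 1.63. Its arrays did not overlap, yet the mock arrays lay further apart than the groups' nearest values.

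**Figure D2:**
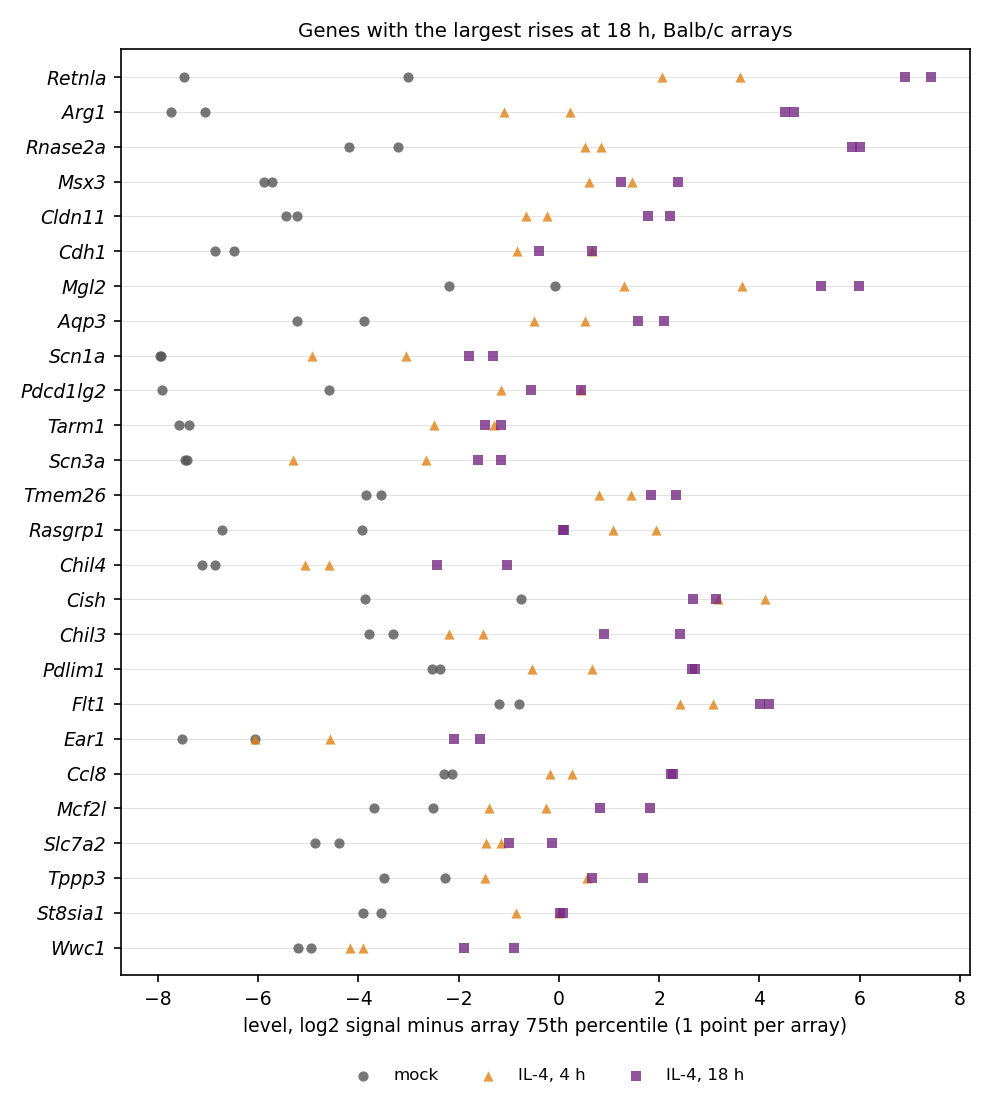
Level of the genes with the largest rises on each Balb/c array, log2 signal relative to the array's 75th percentile, with circles for mock, triangles for 4 h and squares for 18 h of IL-4 (2 arrays each). Retnla, Arg1 and Rnase2a reach 4.51 to 7.42 at 18 h, and the mock and 18 h symbols of every gene shown lie apart.

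Outside that list, large rises covered adhesion, transport, signalling and ion channel genes. Cldn11, a tight junction protein, had levels of -5.45 and -5.22 in mock and 2.21 and 1.77 at 18 h, a rise of 7.33 ± 0.45 log2 or 160-fold (adjusted p = 2.6e-04). Pdlim1, an adaptor of the actin cytoskeleton, moved from -2.37 and -2.54 to 2.65 and 2.72 and rose by 5.14 ± 0.36 (adjusted p = 6.2e-04). Replicates of Pdlim1 were nearly equal within each group. Slc7a2, which imports cationic amino acids including arginine, rose by 4.07 ± 0.35 from -4.39 and -4.86 to -0.13 and -0.99 (adjusted p = 0.0013). Aqp3, a channel for water and glycerol, rose by 6.40 ± 0.68, with 1 of 2 mock arrays above background (adjusted p = 0.0024).

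Msx3, Tarm1, Scn3a and Scn1a appeared from near background. Mcf2l, St8sia1, Wwc1 and Tppp3 were well above background on all 4 arrays. Msx3, a homeobox transcription factor, rose at least 171-fold (adjusted p = 7.1e-04), and Tarm1, an activating receptor of myeloid cells that engages T cells, at least 19.6-fold (adjusted p = 2.3e-04). The sodium channel subunits Scn3a and Scn1a rose at least 18.7-fold and 16.5-fold (adjusted p = 0.0045 and 0.0011). On the C57BL6 4 h arrays both genes had levels of -4.12 and -3.61, so their probes may share signal and the rises may not be independent. Scn1a had a level of -7.94 and -7.97 in mock and of -1.32 and -1.80 at 18 h, so its signal at 18 h was still well below the 75th percentile of the array. Mcf2l, a guanine nucleotide exchange factor, rose by 4.42 ± 0.51 (adjusted p = 0.0034), St8sia1, the synthase of ganglioside GD3, by 3.77 ± 0.29 (adjusted p = 9.1e-04), and Wwc1, a scaffold of Hippo signalling, by 3.69 ± 0.32 (adjusted p = 0.0013). The 2 St8sia1 probes kept changed by 1.00 and 3.77, and the 3 of Mcf2l by 2.38 to 4.42, the brightest being tested. Rasgrp1, which activates Ras, rose by a fitted 5.42 ± 0.76, or at least 29.4-fold with mock replicate 2, which was dim, at its bound (adjusted p = 0.0075), and its call ended without 18 h replicate 2 (adjusted p = 0.0515). The tubulin-binding gene Tppp3 rose by 4.05 ± 0.71 (adjusted p = 0.019), a call kept without mock replicate 1 and ended without each of the other 3 arrays (adjusted p up to 0.128).

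Of 16 genes of IL-4 receptor and JAK-STAT signalling, 1 was called higher and 2 lower, against 1.37% and 2.36% of all genes, with a median log2 change of -0.09. Il4ra, the IL-4-binding chain, had levels of 2.85 and 2.20 in mock and 2.30 and 2.53 at 18 h, a difference of -0.11 ± 0.33 (adjusted p = 0.92). Stat6 had 2.39 and 2.63 in mock and 2.50 and 2.37 at 18 h, a difference of -0.07 ± 0.17 (adjusted p = 0.89). The arrays of both groups overlapped for each of these genes, and the sign of such small differences turned in other settings. Il13ra1, the chain that pairs with IL-4Rα in the receptor shared with IL-13, did fall, from -1.45 and -1.76 to -4.30 and -4.06, by 2.57 ± 0.32 log2 (adjusted p = 0.0046). The kinase Jak2 rose by 1.14 ± 0.24 (adjusted p = 0.044) and the phosphatase Ptpn6 (SHP-1) fell by 0.77 ± 0.15 (adjusted p = 0.029), and both calls ended whichever array was left out (adjusted p up to 0.214 and up to 0.193).

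Among 8 SOCS genes, which feed back on cytokine receptors, 3 were called higher and 0 lower, against 1.37% and 2.36% of all genes. Their median was 0.53. Socs1 had levels of 1.00 and 0.90 in mock and 4.45 and 4.76 at 18 h and rose by 3.66 ± 0.20 log2, or 12.6-fold (adjusted p = 1.9e-04). Cish rose by 5.21 ± 0.85 (adjusted p = 0.014), from mock levels of -0.75 and -3.87 that differed far more than its 18 h levels of 3.14 and 2.67. Its call ended without 18 h replicate 1 or 18 h replicate 2 (adjusted p up to 0.0958). Socs2 rose by 1.69 ± 0.35 (adjusted p = 0.039), a call that ended without each of the 4 arrays in turn (adjusted p from 0.0538 to 0.183). Without 18 h replicate 1 or 18 h replicate 2, Socs1 was the 1 gene of the list still called.

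Transcription factors tied to IL-4 priming had 5 of 15 genes called higher and 0 lower, against 1.37% and 2.36% of all genes. Their median was 0.68. Klf4, a zinc-finger factor of alternative activation, moved from 2.00 and 2.72 to 4.82 and 5.40, a rise of 2.75 ± 0.32 log2 (adjusted p = 0.0034), and kept its call without any single array. Batf3 rose by 2.93 ± 0.45 (adjusted p = 0.011), Egr2 by 2.67 ± 0.48 (adjusted p = 0.021), Bhlhe40 by 2.47 ± 0.53 (adjusted p = 0.044) and Ppargc1b, a coactivator of mitochondrial genes, by 1.34 ± 0.28 (adjusted p = 0.041). The Batf3 call ended without either 18 h array, and that of Egr2 without 18 h replicate 1 or mock replicate 2. The Bhlhe40 call was kept only without 18 h replicate 2, and that of Ppargc1b ended without each of the 4 arrays. Without 1 array the rises stayed at 2.26 to 3.60 for Batf3, 2.19 to 3.16 for Egr2, 1.80 to 3.14 for Bhlhe40 and 1.29 to 1.40 for Ppargc1b. Irf4, a regulator of alternative activation, was not called, with levels of -1.26 and -3.02 in mock and 0.33 and -0.09 at 18 h (2.26 ± 0.56, adjusted p = 0.076). Nor was Pparg, the nuclear receptor of fatty acid ligands, with 2.19 and 2.24 against 3.26 and 2.51 (0.67 ± 0.27, adjusted p = 0.30); for both genes each 18 h array lay above each mock array.

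Interferon-inducible genes fell as a group. Of 31 genes of the interferon response, 26 were called lower and 0 higher, against 2.36% and 1.37% of all genes. All 31 had a negative change with mock and 18 h values that did not overlap, which 21.3% of all genes tested showed in that direction, and the median was -1.70. The count was 20 without mock replicate 1, 13 without 18 h replicate 1, 12 without mock replicate 2 and 21 without 18 h replicate 2. The summed level of the list was 9.63 to 9.85 in mock and 8.36 to 8.59 at 18 h.

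Within that list the IFIT family, whose proteins bind viral RNA, held the 3 largest falls. Ifit3 had levels of 5.28 and 5.52 in mock and 0.40 and 1.17 at 18 h, and fell by 4.62 ± 0.29 log2, or 24.5-fold (adjusted p = 2.9e-04). Ifit2 fell by 4.20 ± 0.22, from 3.67 and 3.75 to -0.68 and -0.29 (adjusted p = 1.9e-04). Ifit1 fell by 3.82 ± 0.31, from 3.28 and 3.35 to -0.88 and -0.13 (adjusted p = 0.0010). In mock cells all 3 lay well above the 75th percentile of their array, and at 18 h only Ifit3 still did. These genes are related in sequence, so their probes may share some signal.

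Rsad2, which encodes the antiviral enzyme viperin, fell by 3.69 ± 0.49 log2, from 4.59 and 5.23 to 0.87 and 1.58 (adjusted p = 0.0061). Cmpk2, a nucleotide kinase encoded beside it, fell by 3.10 ± 0.44 (adjusted p = 0.0078), the GTPase Mx2 by 3.07 ± 0.59 (adjusted p = 0.029) and the exonuclease Isg20 by 3.04 ± 0.46 (adjusted p = 0.010). Calls of Cmpk2 and Isg20 ended without 18 h replicate 1 or mock replicate 2 (adjusted p up to 0.0599 and 0.0650), and that of Mx2 ended without these or mock replicate 1 (adjusted p up to 0.156). Tnfsf10, the death ligand TRAIL, fell by 2.79 ± 0.44, with 1 of 2 arrays above background at 18 h (adjusted p = 0.013), a call that ended without 18 h replicate 1 or mock replicate 2 (adjusted p up to 0.0739).

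Interferon-inducible GTPases, which attack the vacuoles of intracellular pathogens, had 9 of 10 genes called lower and 0 higher. Over all genes 2.36% were called lower and 1.37% higher. The median of the list was -2.37. Tgtp1 had levels of 4.31 and 4.64 in mock and 1.13 and 1.48 at 18 h and fell by 3.17 ± 0.19 log2, or 8.99-fold (adjusted p = 2.6e-04). Iigp1 fell by 3.06 ± 0.26, from 3.51 and 3.15 to 0.16 and 0.37 (adjusted p = 0.0013), and Gbp6 by 3.05 ± 0.26, from -0.26 and -0.38 to -3.52 and -3.22 (adjusted p = 0.0013). Replicates of these 3 genes lay close together on both sides, and the groups stood far apart. Irgm2 fell by 2.29 ± 0.17 (adjusted p = 8.7e-04), Gbp3 by 2.74 ± 0.43 (adjusted p = 0.013), Gbp5 by 2.45 ± 0.47 (adjusted p = 0.029) and Gbp4, outside the list, by 2.90 ± 0.49 (adjusted p = 0.017). The Gbp3 call ended without mock replicate 1 or 18 h replicate 2 (adjusted p up to 0.0871), and the Gbp5 and Gbp4 calls ended without mock replicate 1, 18 h replicate 1 or 18 h replicate 2 (adjusted p up to 0.162 and 0.119). These families contain near-identical genes, so a probe may carry signal of more than 1.

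The stretches before the start of 5 of these lower genes, with Cxcl10 among them, are shown because each holds GAAA, any 2 bases and GAAA, the core of the element bound by interferon-regulated complexes. Build, length and strand are as above, and capitals mark the motif, which reads TTTC, any 2 bases and TTTC where it lies on the opposite strand.
Cxcl10, chr5:92348890-92349139, minus strand: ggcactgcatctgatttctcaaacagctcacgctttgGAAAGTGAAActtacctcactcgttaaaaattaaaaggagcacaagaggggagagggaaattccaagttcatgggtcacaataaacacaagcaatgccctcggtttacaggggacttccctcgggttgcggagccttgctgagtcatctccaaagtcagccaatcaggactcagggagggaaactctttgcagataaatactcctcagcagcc
Ifit1, chr19:34640639-34640888, plus strand: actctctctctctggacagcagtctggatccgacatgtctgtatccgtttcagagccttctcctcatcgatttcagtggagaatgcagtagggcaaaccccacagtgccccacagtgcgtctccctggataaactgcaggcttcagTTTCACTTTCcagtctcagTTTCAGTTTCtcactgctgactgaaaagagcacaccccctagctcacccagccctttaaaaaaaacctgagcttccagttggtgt
Ifit3, chr19:34583279-34583528, plus strand: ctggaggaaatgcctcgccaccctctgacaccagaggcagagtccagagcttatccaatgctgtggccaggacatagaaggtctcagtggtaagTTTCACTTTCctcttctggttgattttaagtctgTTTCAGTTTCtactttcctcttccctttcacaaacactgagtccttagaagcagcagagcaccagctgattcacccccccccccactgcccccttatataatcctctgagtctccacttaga
Rsad2, chr12:26456453-26456702, minus strand: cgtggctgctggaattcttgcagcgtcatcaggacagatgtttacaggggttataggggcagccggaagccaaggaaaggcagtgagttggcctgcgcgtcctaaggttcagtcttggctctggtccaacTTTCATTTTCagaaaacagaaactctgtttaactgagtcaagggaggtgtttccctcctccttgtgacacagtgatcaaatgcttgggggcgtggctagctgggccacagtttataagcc
Tgtp1, chr11:48992247-48992496, minus strand: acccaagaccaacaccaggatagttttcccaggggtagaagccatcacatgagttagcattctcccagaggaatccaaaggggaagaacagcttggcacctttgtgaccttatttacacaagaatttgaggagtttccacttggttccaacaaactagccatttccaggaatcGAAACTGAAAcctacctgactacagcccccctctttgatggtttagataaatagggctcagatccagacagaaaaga
Ifit1 and Ifit3 hold 2 matches each, at 104 to 95 and 85 to 76 bases before the start of Ifit1 and at 156 to 147 and 122 to 113 bases before that of Ifit3. The single matches lie 213 to 204 bases before the start of Cxcl10, 120 to 111 before that of Rsad2 and 77 to 68 before that of Tgtp1. On both strands of the 300-base window the motif was in 3.44% of all 32851 promoters, in 3.14% of those of genes tested and in 15.2% (47 of 309, in 44 genes) of those of genes at least 2-fold lower. It was in 1.49% (3 of 202) of those of genes at least 2-fold higher and in 44.4% (12 of 27) of those of the interferon list. The interferon list too was chosen with earlier results of these data known.

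Socs1, which rose, carries the same letters; it is printed as 1 of the 3 promoters of genes at least 2-fold higher that hold it.
Socs1, chr16:10785537-10785786, minus strand: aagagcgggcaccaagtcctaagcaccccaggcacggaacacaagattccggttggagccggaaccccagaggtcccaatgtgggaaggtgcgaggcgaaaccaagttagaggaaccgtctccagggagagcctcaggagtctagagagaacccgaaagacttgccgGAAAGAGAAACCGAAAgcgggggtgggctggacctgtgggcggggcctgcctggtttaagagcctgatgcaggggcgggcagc
Its 2 overlapping matches in capitals span 83 to 74 and 77 to 68 bases before the start.

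**Figure D3:**
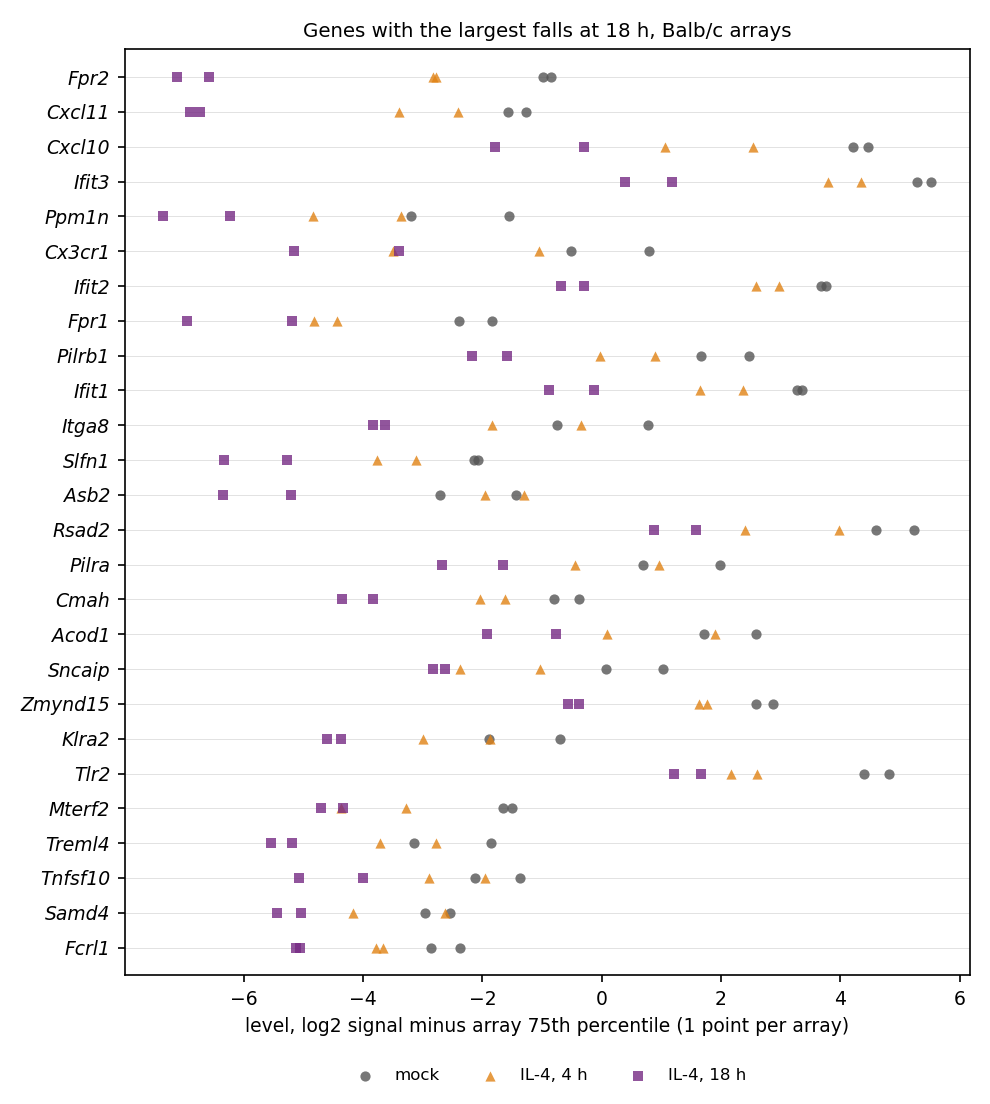
Level of the genes with the largest falls on each Balb/c array, log2 signal relative to the array's 75th percentile, with circles for mock, triangles for 4 h and squares for 18 h of IL-4 (2 arrays each). Ifit3 drops from 5.28 and 5.52 to 0.40 and 1.17, and Fpr2 and Cxcl11 end below -6 at 18 h.

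Of 8 CXC chemokines 4 were called lower and 0 higher, against 2.36% and 1.37% of all genes. Their median was -3.08, or -2.22 with dim genes set to their bound. The others were Cxcl1, Cxcl2 and Cxcl14, with negative differences and no call, and Cxcl12 at 0.87 ± 0.27 (adjusted p = 0.15). The interferon-inducible Cxcl10, which attracts T cells through CXCR3, had levels of 4.21 and 4.46 in mock and -1.79 and -0.30 at 18 h, and fell by 5.38 ± 0.57 log2, or 41.6-fold (adjusted p = 0.0026). Cxcl11 and Cxcl9, ligands of the same receptor, fell at least 13.0-fold and 3.16-fold to near background (adjusted p = 2.9e-04 and 0.0039), the Cxcl9 call ending under normexp background correction. All 3 ligands of this receptor stood lower on both 18 h arrays than on either mock array, as 21.3% of all genes tested did. Cxcl16, a scavenger and chemokine, fell by 2.55 ± 0.46 (adjusted p = 0.022), a call that ended without mock replicate 1 or 18 h replicate 2 (adjusted p up to 0.145).

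Of 13 CC chemokines, 1 was called higher and 3 lower, against 1.37% and 2.36% of all genes, with a median of 0.58. Ccl8, an attractant of type 2 T cells in mouse, had levels of -2.30 and -2.13 in mock and 2.23 and 2.28 at 18 h and rose by 4.47 ± 0.49 log2, or 22.1-fold (adjusted p = 0.0029). Ccl3, Ccl4 and Ccl5, which attract monocytes and T cells, fell by 2.39 ± 0.40, 2.32 ± 0.42 and 2.10 ± 0.37 (adjusted p = 0.017, 0.021 and 0.020). Without mock replicate 1, 2 of these lower calls were left, without mock replicate 2, 1, and without either 18 h array, 0 (adjusted p up to 0.0982, 0.133 and 0.117). Ccl7 was not called, with a difference of 3.60 ± 1.51 (adjusted p = 0.31) and mock levels of -0.79 and 3.67 that lay further apart than the group means.

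Of 15 receptors for chemoattractants 4 were called lower and 1 higher, against 2.36% and 1.37% of all genes, with a median of -0.52. Fpr2, a receptor for formylated bacterial peptides, had levels of -0.84 and -0.99 in mock and -7.11 and -6.58 at 18 h, where neither array was above background, and fell at least 18.3-fold (adjusted p = 9.1e-04). Its relative Fpr1 fell at least 8.00-fold to near background (adjusted p = 0.0075), and its call ended without mock replicate 1 (adjusted p = 0.0575). Cx3cr1, the fractalkine receptor, went from -0.52 and 0.79 to -5.15 and -3.39, with 1 of 2 arrays above background at 18 h. It fell by 4.41 ± 0.86 log2 (adjusted p = 0.031), a call that ended without each of the 4 arrays in turn (adjusted p from 0.0520 to 0.172). Ccrl2, a chemerin-binding receptor, fell by 1.68 ± 0.22 (adjusted p = 0.0055). The high-affinity leukotriene B4 receptor Ltb4r1 went the other way, from 0.73 and -0.20 to 2.80 and 2.53, a rise of 2.40 ± 0.30 (adjusted p = 0.0046).

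Sensors of bacterial products and the NF-kB system were lower in part. Of 22 Toll-like receptors and adaptors 4 were called lower and 0 higher (median -0.32). Of 11 NF-kB subunits and inhibitors 3 were called lower and 0 higher (median -0.38). Over all genes 2.36% were called lower and 1.37% higher. Tlr2, the receptor for bacterial lipoproteins, had levels of 4.82 and 4.39 in mock and 1.66 and 1.21 at 18 h and fell by 3.17 ± 0.29 log2, or 9.0-fold (adjusted p = 0.0016). Cd14, a coreceptor for lipopolysaccharide, fell by 2.42 ± 0.50 (adjusted p = 0.039), the kinase Irak2 by 1.30 ± 0.27 (adjusted p = 0.041) and the adaptor Myd88 by 0.67 ± 0.14 (adjusted p = 0.044). Of these 4 genes only Tlr2 kept its call without any single array. Calls of Cd14 and Myd88 ended without each of the 4 arrays (adjusted p up to 0.202 and 0.241), and that of Irak2 ended without each array but 18 h replicate 1 (adjusted p up to 0.222).

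The 3 called NF-kB genes belong to the inhibitor family, while the subunit Relb, at -1.72 ± 0.38 log2 (adjusted p = 0.0507), and Nfkb2, at -0.95 ± 0.21 (adjusted p = 0.054), were just outside the threshold. Nfkbiz, a nuclear member that sustains inflammatory transcription, had levels of 0.67 and 0.84 in mock and -2.48 and -2.17 at 18 h, and fell by 3.08 ± 0.39 log2 (adjusted p = 0.0048). Nfkbie fell by 1.53 ± 0.16 (adjusted p = 0.0023) and Nfkbia by 1.38 ± 0.21 (adjusted p = 0.0098), the latter call ending without mock replicate 1 or 18 h replicate 1 (adjusted p up to 0.0715). Among 12 inflammatory cytokines and mediators 3 were called lower and 0 higher, against 2.36% and 1.37% of all genes, with a median of -0.69. Il1b, from -0.21 and -1.69 to -4.44 and -3.72, fell by 3.13 ± 0.51 (adjusted p = 0.014), its natural antagonist Il1rn by 1.41 ± 0.20 (adjusted p = 0.0084) and Il18 by 1.32 ± 0.16 (adjusted p = 0.0038). The Il1b call ended without mock replicate 1 or 18 h replicate 1 (adjusted p up to 0.0985) and that of Il1rn without mock replicate 1 or 18 h replicate 2 (adjusted p up to 0.0510). Tnf was not called, with mock levels of -0.55 and 1.85 and 18 h levels of -2.19 and -1.09 (adjusted p = 0.26), nor was Il6, which stood 3.87 ± 0.97 higher (adjusted p = 0.079) and was detected on 1 of 2 mock arrays.

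The paired receptors Pilrb1 and Pilra were among the genes that fell most. Of 22 Fc and paired receptors 4 were called lower and 1 higher, against 2.36% and 1.37% of all genes, with a median of -0.45. Others of the list were not called, among them Pirb (-0.49 ± 0.18, adjusted p = 0.25), Sirpa (-0.08 ± 0.18, adjusted p = 0.88) and Cd300lb (0.82 ± 0.29, adjusted p = 0.22). Pilrb1, the activating receptor of its pair, had levels of 1.66 and 2.46 in mock and -2.18 and -1.59 at 18 h and fell by 3.95 ± 0.39 log2 (adjusted p = 0.0020). Its inhibitory partner Pilra fell by 3.51 ± 0.58 (adjusted p = 0.015), a call that ended without 18 h replicate 1 or mock replicate 2 (adjusted p up to 0.102). Both members of the pair were thus lower, although their probes may share signal. Treml4 fell at least 6.10-fold to near background (adjusted p = 0.012, ended without either 18 h array, adjusted p up to 0.0852). Fcgr1, the activating high-affinity receptor for IgG, fell by 1.90 ± 0.24 (adjusted p = 0.0050). The inhibitory Fcgr2b rose by 1.57 ± 0.31 (adjusted p = 0.031), a call kept only without mock replicate 1 (rise of 1.19 to 1.94 without 1 array). Fcgr3, Fcgr4 and Fcer1g were not called, with differences of 0.41, -1.08 and -0.44 log2.

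Other large falls crossed many functions. Cmah, the enzyme that makes N-glycolylneuraminic acid, went from -0.81 and -0.39 to -4.35 and -3.83 and fell by 3.49 ± 0.36 log2 (adjusted p = 0.0023). Zmynd15, a zinc-finger protein, fell by 3.19 ± 0.25 (adjusted p = 9.1e-04), from 2.87 and 2.58 to -0.38 and -0.56. For both genes the replicates lay close to each other and far from the other group. The 2 Cmah probes kept changed by -3.49 and -1.80, the brighter being tested. The ubiquitin ligase subunit Asb2 and the growth regulator Slfn1 fell at least 8.17-fold and 8.02-fold to near background (adjusted p = 0.0062 and 0.0019). Mterf2, a mitochondrial factor, fell by 2.94 ± 0.32 (adjusted p = 0.0028) and the receptor-like Fcrl1 by 2.47 ± 0.20 (adjusted p = 0.0010), each with 1 of 2 arrays above background at 18 h.

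Other falls of this size lost their call without some arrays while their direction stayed. Acod1, the enzyme that makes itaconate, fell by 3.49 ± 0.64 log2 (adjusted p = 0.022), and its call ended without each of the 4 arrays (adjusted p from 0.0510 to 0.140), although it stayed between -4.07 and -2.91. The phosphatase Ppm1n fell at least 6.68-fold and Samd4, an RNA-binding protein, at least 4.90-fold to near background (adjusted p = 0.0089 and 0.032). Ppm1n lost its call without 18 h replicate 1 (adjusted p = 0.0654) and Samd4 without each of the 4 arrays (adjusted p up to 0.189). Sncaip (synphilin-1) fell by 3.27 ± 0.47 (adjusted p = 0.0081), which ended without 18 h replicate 1 (adjusted p = 0.0611), and the inhibitory receptor Klra2 by 3.19 ± 0.60 (adjusted p = 0.025), which was kept only without mock replicate 1 (adjusted p up to 0.145).

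Of 16 macrophage fusion genes 3 were called higher and 0 lower, against 1.37% and 2.36% of all genes (median 0.28), and they were Cdh1, Itgb3 and Ocstamp. Itgb3, the integrin β3 chain, had levels of 0.47 and 0.52 in mock and 4.14 and 4.05 at 18 h and rose by 3.60 ± 0.17 log2, or 12.1-fold (adjusted p = 1.3e-04). Ocstamp, a membrane protein needed for fusion of osteoclasts and giant cells, rose by 2.31 ± 0.33, from -2.75 and -2.91 to -0.05 and -0.98 (adjusted p = 0.0079). Among 16 integrin subunits 2 were called higher and 2 lower, again against 1.37% and 2.36% of all genes. Itgax, the integrin chain CD11c, rose by 1.93 ± 0.39 (adjusted p = 0.036), kept only without 18 h replicate 2 (adjusted p up to 0.186), while Itga6 fell by 2.39 ± 0.21 (adjusted p = 0.0013) and Itga8 by 3.75 ± 0.69 (adjusted p = 0.023), the last kept only without mock replicate 1 (adjusted p up to 0.135). Of the matrix genes Spp1 (osteopontin) fell by 1.20 ± 0.21 (adjusted p = 0.019), kept only without 18 h replicate 1 (adjusted p up to 0.119), and Timp1, an inhibitor of matrix proteases, rose by 1.17 ± 0.19 (adjusted p = 0.013), ended without each array (adjusted p up to 0.0911).

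Against 1.37% higher and 2.36% lower of all genes, growth factors gave 3 rises among 18 genes and no call lower. Besides Flt1 these were 2 ligands of the EGF receptor. Hbegf had levels of -3.42 and -3.42 in mock and -0.43 and 0.19 at 18 h and rose by 3.30 ± 0.37 log2 (adjusted p = 0.0032), and Tgfa rose at least 2.54-fold from near background (adjusted p = 0.0024), a call that ended under normexp background correction (adjusted p = 0.57). Both mock arrays were below both 18 h arrays for each. The immediate-early gene Ier3, a regulator of cell survival, rose by 3.01 ± 0.31 (adjusted p = 0.0024), and Zfp36, which promotes decay of inflammatory mRNAs, by 0.73 ± 0.15 (adjusted p = 0.041), ended without each array (adjusted p up to 0.232). In iron handling the transferrin receptor Tfrc rose by 2.18 ± 0.23, from 1.22 and 0.85 to 3.30 and 3.11 (adjusted p = 0.0024), and the haemoglobin scavenger receptor Cd163 by 1.11 ± 0.24 (adjusted p = 0.047), kept only without 18 h replicate 1 (adjusted p up to 0.235).

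Receptors and enzymes of host defence that fell included Cybb, the catalytic subunit of the phagocyte NADPH oxidase, from 4.12 and 3.68 to 2.41 and 2.20 (1.59 ± 0.21 log2 lower, adjusted p = 0.0056). It was the 1 called gene of 7 in that complex and its relatives, where 2.36% of all genes were called lower. Havcr2 (TIM-3) fell by 1.79 ± 0.24 (adjusted p = 0.0057), Hpgds, which makes prostaglandin D2, by 1.17 ± 0.14 (adjusted p = 0.0039) and the lectin Clec12a by 2.07 ± 0.29 (adjusted p = 0.0073), the last ended without mock replicate 1 (adjusted p = 0.0508). Clec4e, a receptor for mycobacterial glycolipid, fell by 1.95 ± 0.35 (adjusted p = 0.020), kept only without mock replicate 1 (adjusted p up to 0.132). Complement factor B (Cfb) fell by 1.61 ± 0.29 (adjusted p = 0.022) and the cholesterol exporter Abca1 by 1.39 ± 0.23 (adjusted p = 0.016), both kept only without mock replicate 2 (adjusted p up to 0.138 and 0.103). The peptide transporter Tap1 fell by 0.90 ± 0.18 (adjusted p = 0.037) and the costimulator Icosl by 1.28 ± 0.27 (adjusted p = 0.043), both ended without each array (adjusted p up to 0.202 and 0.233). Another costimulatory molecule, Cd276 (B7-H3), fell at least 1.69-fold to near background (adjusted p = 0.013), and its call was kept only without mock replicate 1 (adjusted p up to 0.0893) and ended under quantile scaling, median scaling and normexp. Of the polyamine enzymes Smox, spermine oxidase, fell by 1.09 ± 0.16 (adjusted p = 0.0089), a call that ended without mock replicate 1 or 18 h replicate 2 (adjusted p up to 0.0698).

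**Figure D4:**
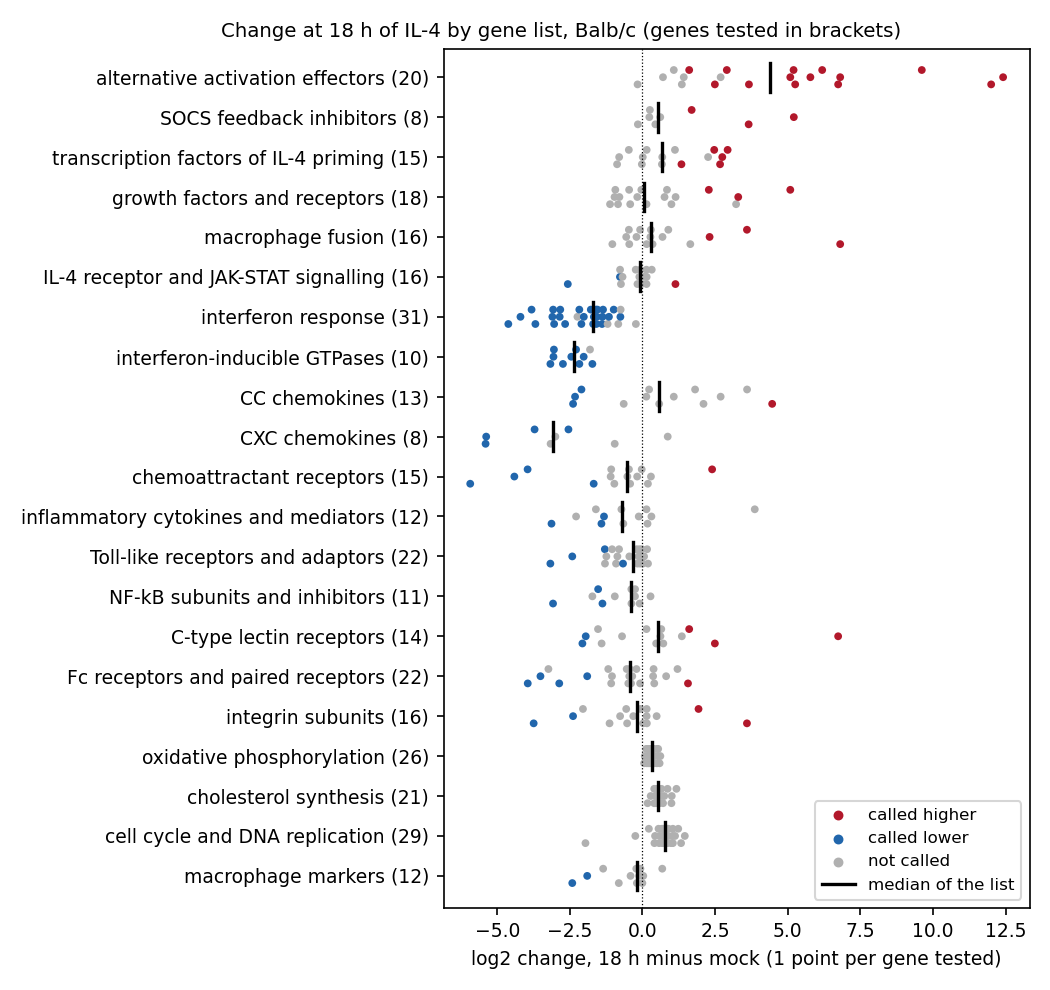
Log2 change at 18 h of IL-4 against mock for every tested gene of 21 lists in Balb/c macrophages, with red for genes called higher, blue for genes called lower, grey for genes not called and a black bar for the list's median (number of genes in brackets). Medians run from 4.38 for alternative activation effectors to -3.08 for CXC chemokines, and the points of oxidative phosphorylation and cholesterol synthesis all lie above 0 with none called. With dim genes set to their bound the first 2 medians are 3.77 and -2.22, and that of interferon-inducible GTPases is -2.37.

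Several lists of metabolism and that of the cell cycle had no called gene, and some of these had nearly all values on 1 side of 0. All 26 genes of oxidative phosphorylation had positive differences, with a median of 0.33 log2, and none was called; Cox7b, a subunit of cytochrome c oxidase, had 2.69 and 3.05 in mock and 3.49 and 3.43 at 18 h (0.59 ± 0.16, adjusted p = 0.10). All 21 genes of cholesterol synthesis were positive with a median of 0.54, and 27 of 29 cell cycle genes with a median of 0.76, against 0.02 over all genes, again with 0 calls in either. Over all genes tested, 9645 of 18427 changes were positive, and 3.73% of genes were called in either direction. The cell cycle list had a summed level of 7.43 and 8.73 on the mock arrays and of 8.58 to 8.88 at 18 h, so mock replicate 2 lay within the range of the 18 h arrays. Fatty acid oxidation (18 genes, median 0.27), glycolysis (15, median 0.30), lysosome and cathepsins (20, median -0.10), ribosomal proteins (15, median 0.15) and MHC class II (11, median 0.46) had no calls either. The prostaglandin synthase Ptgs1 (COX-1) was not called despite levels of 1.93 and 0.15 in mock and 4.55 and 3.93 at 18 h (3.20 ± 0.81, adjusted p = 0.084). The chaperone Pdia4 was the 1 called gene of 16 in the unfolded protein response, higher by 1.69 ± 0.25 (adjusted p = 0.0093), a call that ended without either 18 h array (adjusted p up to 0.0650).

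Levels at 18 h were next set against those at 4 h in the same strain, to see which genes differed between these times. In the same limma fit 166 genes (0.901%) differed, 45 (0.244%) higher and 121 (0.657%) lower at 18 h than at 4 h, and 1991 had an unadjusted p below 0.05. Of 20 effectors of alternative activation 4 were called higher at 18 h than at 4 h and 0 lower, with a median of 0.86 against -0.04 for all genes. Arg1 was at -1.10 and 0.22 at 4 h and rose by a further 5.04 ± 0.45 log2 (adjusted p = 0.0062). Rnase2a, at 0.85 and 0.52 at 4 h, rose by a further 5.24 ± 0.43 (adjusted p = 0.0057), and Chil3, at -1.52 and -2.20, by 3.51 ± 0.59 (adjusted p = 0.042). Fn1 (3.03 ± 0.39), Pdlim1 (2.62 ± 0.36), Wwc1 (2.64 ± 0.32) and the repressor Gfi1b (2.39 ± 0.37) were also higher at 18 h than at 4 h (adjusted p from 0.014 to 0.034). Against mock Gfi1b rose by 1.83 ± 0.37 (adjusted p = 0.036), a call kept only without mock replicate 2 (adjusted p up to 0.198). In contrast, Tmem26, Cdh1 and Pdcd1lg2 were not called between the times, with 18 h minus 4 h differences of 0.97 ± 0.29, 0.21 ± 0.54 and 0.29 ± 1.00 (adjusted p = 0.24, 0.98 and 0.98).

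Interferon-inducible genes were lower at 18 h than at 4 h. Of the interferon list 16 of 31 genes, and of inducible GTPases 7 of 10, were called lower and 0 higher. Over all genes 0.657% were called lower and 0.244% higher between these times. The interferon list had a median of -0.33 at 4 h and of -1.70 at 18 h against mock, comparisons that share the mock arrays. Ifit3 was at 3.80 and 4.34 at 4 h and fell by a further 3.29 ± 0.29 log2 (adjusted p = 0.0062), Ifit2 by 3.26 ± 0.22 (adjusted p = 0.0054), Tgtp1 by 2.65 ± 0.19 (adjusted p = 0.0054) and Irgm2 by 1.98 ± 0.17 (adjusted p = 0.0062). Gbp4 and Isg20 were not called at 4 h (0.48 and -0.12 against mock) and fell by 3.38 ± 0.49 and 2.92 ± 0.46 between the times (adjusted p = 0.028 and 0.035). Asb2 was not called at 4 h either (0.46 against mock) and fell by 4.15 ± 0.50 between the times (adjusted p = 0.014). Serpina3g, a serine protease inhibitor, went up and back: it had 1.29 and 1.12 in mock, 4.58 and 3.56 at 4 h and 0.49 and 0.56 at 18 h, a fall of 3.54 ± 0.37 from 4 h (adjusted p = 0.0093). Spsb4, a ubiquitin ligase adaptor, did the opposite, with -2.0 and -1.27 in mock, -3.86 and -3.20 at 4 h and -1.16 and -1.51 at 18 h, a rise of 2.20 ± 0.29 from 4 h (adjusted p = 0.019).

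Among feedback inhibitors, Socs2 fell by 2.18 ± 0.35 from 4 h to 18 h (adjusted p = 0.037), while Socs1, at 5.76 and 5.35 at 4 h, was lower by 0.95 ± 0.20 without a call (adjusted p = 0.092). Cish was lower by 0.74 ± 0.85 (adjusted p = 0.89). The count of genes that differed between the times was 105 without 4 h replicate 1, 62 without 4 h replicate 2, 34 without 18 h replicate 2 and 0 without 18 h replicate 1, where limma left 1363 genes at an unadjusted p below 0.05. The calls between the times therefore ended without 18 h replicate 1.

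**Figure D5:**
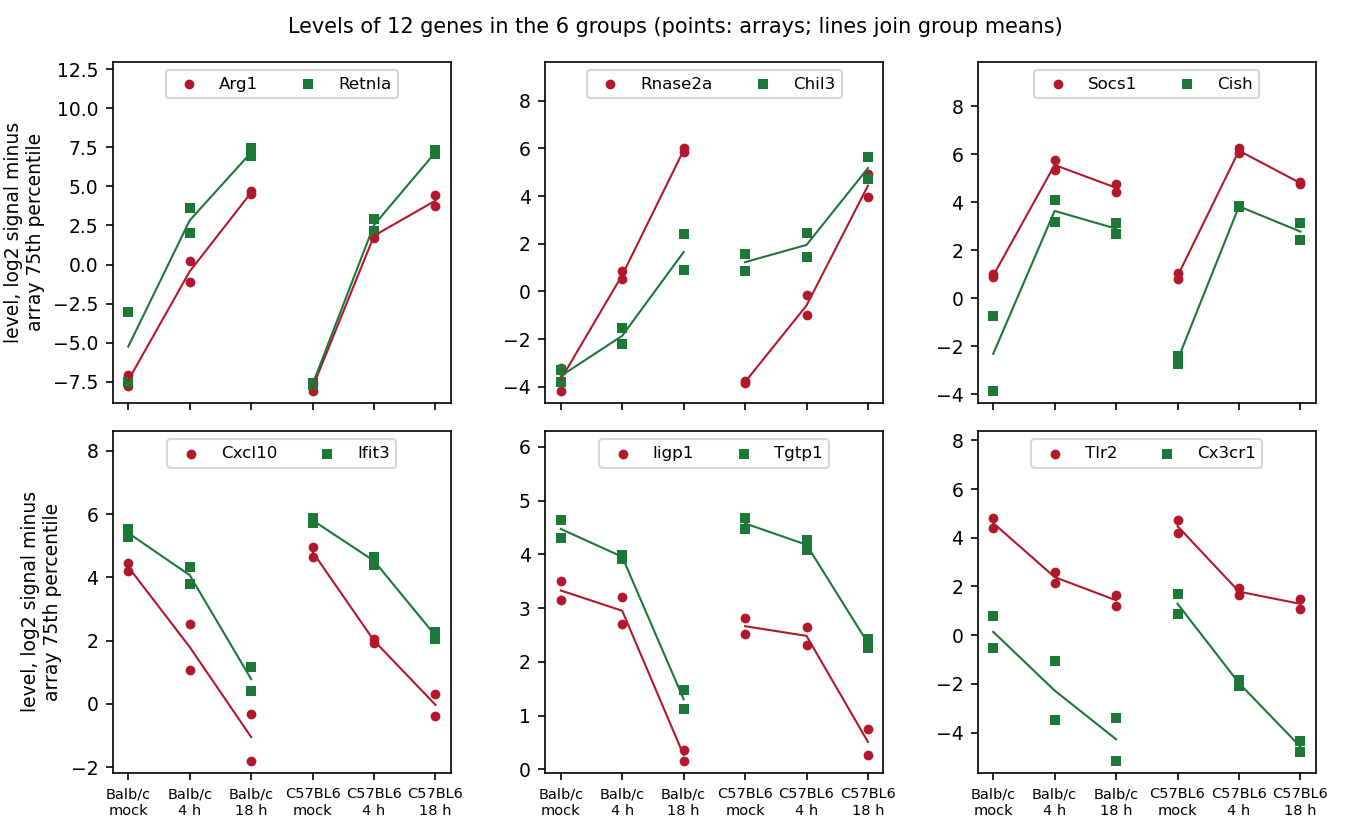
Levels of 12 genes on the arrays of the 6 groups, log2 signal relative to the array's 75th percentile, by strain and by mock, 4 h or 18 h of IL-4 (points are arrays, 2 per group, and lines join the group means). Arg1, Retnla, Rnase2a and Chil3 are highest at 18 h in both strains, Socs1 and Cish at 4 h, and Cxcl10, Ifit3, Tlr2 and Cx3cr1 are lowest at 18 h.

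The 18 h response of Balb/c cells was then tested against that of C57BL6 cells, as the difference between the strains' changes from their own mock. No gene (0%) was called in limma at an adjusted p below 0.05, while 977 genes had an unadjusted p below 0.05 and the lowest adjusted p was 0.0847. Among genes above background on all 8 arrays of this contrast, Rnase2a rose by 9.62 log2 in Balb/c and 8.24 in C57BL6, a difference of 1.38 ± 0.61 (adjusted p = 0.93). Mgl2 rose by 6.74 and 6.55, a difference of 0.19 ± 1.23 (adjusted p = 0.99), and Socs1 by 3.66 and 3.87, a difference of -0.21 ± 0.28 (adjusted p = 0.97). Ifit2 fell by 4.20 in Balb/c and by 2.78 in C57BL6, a difference of -1.42 ± 0.31 (adjusted p = 0.57), and Ocstamp rose by 2.31 and 4.30, a difference of -1.98 ± 0.46 (adjusted p = 0.63). The errors are wide, so the absence of a call does not show that the strains responded alike. Arg1, Retnla and Slc7a2 were below background on both C57BL6 mock arrays, so no difference between the strains is given for them.

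Markers of other cell types were examined over the same arrays, where 1.37% of all genes tested were called higher and 2.36% lower. Of 10 neutrophil markers 1 was called lower, Camp, which was well above background on 1 mock array and on neither 18 h array and so is not among the 15723 genes (call kept only without mock replicate 2, adjusted p up to 0.185), and the summed level was 2.21 to 3.41 in mock and 1.83 to 2.10 at 18 h. Of 8 dendritic cell markers 2 were called higher, Batf3 and Itgax, both also known in macrophages, and the summed level was 3.10 to 3.62 in mock and 4.95 to 5.75 at 18 h, while Zbtb46, Xcr1 and Ccr7 had differences of 0.14, -0.17 and -0.46 without a call. Of 5 eosinophil markers 1 was called higher, Ear6, with a summed level of -2.40 to -2.26 in mock and -1.66 to -1.23 at 18 h, and Prg2 was not well above background on either 18 h array. Of 3 NK cell markers 1 was called lower, the activating receptor Klrk1, at least 2.28-fold to near background (adjusted p = 0.0036, call ended under normexp), with Klrb1c not well above background on any of the 4 arrays and a summed level of -3.37 to -2.93 in mock and -5.17 to -5.04 at 18 h. T cell (7), B cell (8), erythroid (4), mast cell and basophil (6), stromal (9) and megakaryocyte (6) markers had 0 calls. Summed levels were -0.51 to 0.11 in mock and -0.68 to -0.62 at 18 h for T cells, 4.84 to 5.19 and 4.89 to 4.97 for stromal cells, 6.02 to 6.62 and 5.24 to 6.03 for B cells, -2.54 to -1.38 and -1.42 to -1.16 for erythroid cells, -2.60 to -2.49 and -2.89 to -2.06 for mast cells and basophils, and 6.09 to 6.15 and 6.04 to 6.50 for megakaryocytes, the last carried by Pf4 and Vwf. Of the 8 B cell markers 4 were above background on all 4 arrays, and Cd79a and Pax5 were not well above background on both arrays of either group. The part of such cells in the results above was not tested.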

How the data were processed

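RNA of each pooled sample was labelled with Cy3 and hybridised to 1-colour Agilent arrays, which the authors scanned; the submitters' processing notes name Agilent Feature Extraction 9.5.1.1. The authors deposited processed signal intensities, already background-corrected per the file headers, and a deposited table of ratios, used only as an alternative. The log2 of the deposited intensity minus each array's 75th percentile was computed for 41174 non-control probes, and 27373 probes well above background on both arrays of any group were kept. Genes were named through RefSeq tables (GRCm38.p6) by accession, symbol or older symbol (17629, 3978 and 1871 probes), otherwise by the file's name (3895), and the brightest probe stood for each gene. limma 3.58.1 (R 4.3.3; lmFit, eBayes) fitted 6 group means to the 12 arrays and was checked on simulated data. Named genes were the largest changes by detection class, up to 6 called or largest genes per list, and 10 that were always named. The genes and lists were chosen with earlier results of these data known. Alternatives covered scaling, background, filters, probes, arrays in the fit, slides, replicate block and leaving out arrays.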

Additional observations from a re-analysis of the deposited data

How the results depend on the processing

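All 121 called genes named above kept their direction under every alternative that tested them, and 100 to 120 of them kept their call under other scalings, backgrounds, filters, probe means, array weights and a slide block, leaving aside the filters that drop some of these genes. With only the 4 arrays compared in the fit, 15 of the 121 kept it, and calls lost without 1 array are given above. The 687 calls at 18 h against mock became 437 with no background filter and 17 with only the arrays compared, where fewer degrees of freedom were left. Leaving out 1 array gave 314 to 446. The 166 calls at 18 h against 4 h became 96 under median scaling, 47 with no filter, 70 with array weights and 0 with only the arrays compared (1135 genes at an unadjusted p below 0.05 in limma), and 0 to 105 without 1 array. The strain difference, with 0 calls, gave 9 under quantile scaling, 2 under median scaling, 1 with the deposited ratios and 2 with a slide block, and 0 to 4 without 1 array. Except where stated, the cause was not tested. Uncalled differences that turned sign were those of Il4ra (0.023 with a slide block, and -0.43 to 0.22 without 1 array), Stat6 (0.0064 with a slide block, and -0.19 to 0.048 without 1 array) and Spsb4 (-0.064 to 0.67 without 1 array). With the replicate number as a block the counts were 2787 at 18 h against mock and 1114 against 4 h, and no named call was lost. Deviations of same-numbered arrays correlated at 0.32 to 0.65 in Balb/c and at 0.15 to 0.62 in C57BL6, but the labels give only a shared number. Normexp was run, as chosen after seeing the data, with local backgrounds above 1000 replaced, since 6 arrays with 2 to 16 such spots could not be fitted well otherwise. Median scaling moved the median of all genes by 0.11 at 18 h against 4 h. With 2 arrays a group, dim genes have only bounds.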
